A study of Mus musculus with 5 samples.

Results

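The Hmga2 and Cd248 repair stroma is a set of 652 cells among 47829 kept cells of mouse femur marrow. A cell belonged to it when at least 3 of the 5 genes Hmga2, Masp1, Cd248, Adam23 and Acta2 had at least 1 UMI (a counted molecule) and when Ptprc, a pan-leukocyte gene, and Myh11 and Rgs5, genes of smooth muscle and pericytes, had none. The name describes this rule and is not a cell type given by the authors. Because the cells were chosen by their expression, every contrast between them and other cells is a description, and no test is attached to it.

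The study sequenced single cells sorted as tdTomato-positive from marrow stroma of Lepr-cre, R26R-tdTomato mice. In them Cre under the leptin receptor gene turns on a red reporter, and the sort was aimed at cells of this lineage. Even so, 38858 of the 47829 kept cells lay in clusters classed here as stromal. The rest lay in other clusters, such as those of blood and endothelial cells. Every group carried these alleles. The femurs had lost their distal growth plates and proximal ends before the cells were taken, and BD Rhapsody cartridges were loaded with some 30000 cells for each library. The aged-injury library came from mice of 18 months, 1 week after marrow ablation surgery, and the aged library from uninjured mice of 18 months. The exhausted library came from mice of 15 weeks with surgeries at 9 and 13 weeks, the naive library from mice of 15 weeks with 1 surgery at 13 weeks, and the control library from uninjured mice of 15 weeks. Each group is 1 library, and the number of animals behind it is not given in the labels. Differences between groups therefore have no replicate check: all intervals are exact 95% intervals for counting error (Clopper-Pearson for shares of cells, Poisson and conditional binomial for UMIs), they do not cover mice, surgeries or library preparation, and they are too narrow where few cells carry the UMIs.

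Marrow ablation empties the marrow cavity, which then fills with a transient healing tissue and bone before marrow returns. Hmga2 encodes a chromatin protein that bends DNA and is high in embryonic mesenchyme and low in most adult tissues, where let-7 microRNAs hold it down. Cd248 (endosialin) is a surface glycoprotein of mesenchymal and perivascular cells in growing and injured tissue, and Acta2 (smooth muscle actin) and Tagln (transgelin) mark contractile cells, among them the myofibroblasts of healing wounds. Masp1 is a serine protease of the lectin pathway of complement, and Adam23 is an ADAM-family surface protein without protease activity that binds LGI proteins.

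Nearly all of these cells were in the aged-injury library. It held 613 of them among 19497 kept cells (3.14%, interval 2.90 to 3.40%), which is 94.0% of the whole set, against 1 among 7560 kept cells of the aged library (0.0132%, 0.000335 to 0.0737%). The younger injured libraries held fewer: 5 of 6277 cells in exhausted (0.0797%, 0.0259 to 0.186%) and 32 of 5242 cells in naive (0.610%, 0.418 to 0.861%), against 1 of 9253 cells in control (0.0108%, 0.000274 to 0.0602%). The interval of naive lay above that of exhausted, and both were taken 2 weeks after their last surgery at the same age. Number of surgeries and library cannot be told apart between them. Stromal cells were 18370 of the kept cells in aged-injury, 3709 in naive and 2887 in exhausted. Among stromal cells alone the share was 3.33% in aged-injury, 0.863% in naive and 0.173% in exhausted. The aged-injury library was taken 1 week after surgery, so age and time after surgery cannot be told apart between it and naive.

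The rule asks for detected genes, and so it finds deep cells more easily. The median was 29552 UMIs in repair cells and 9284.5 UMIs in the other stromal cells of the aged-injury library, and 21428.5 against 7017 UMIs in naive. With every cell thinned to 3000 UMIs the share was 0.796% in aged-injury (134 of 16827 cells, interval 0.668 to 0.942%) and 0% in aged (0 of 6137 cells, which allows a share of up to 0.0489%), and it was 0% in exhausted (0 of 5309 cells, which allows up to 0.0565%), 0.0886% in naive (4 of 4515 cells, 0.0241 to 0.227%) and 0% in control (0 of 8660 cells, which allows up to 0.0346%). At this depth the intervals of naive and exhausted overlapped. Shared cell barcodes numbered 0 to 5 between pairs of libraries, and no barcode of a repair cell was used by more than 1 library. The doublet caller marked 0 repair cells, but it marked only 86 cells of the series and 0 of the aged-injury library. Its calls therefore cannot show that doublets are absent, no cell was removed by them, and doublets may remain.

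**Figure D1:**
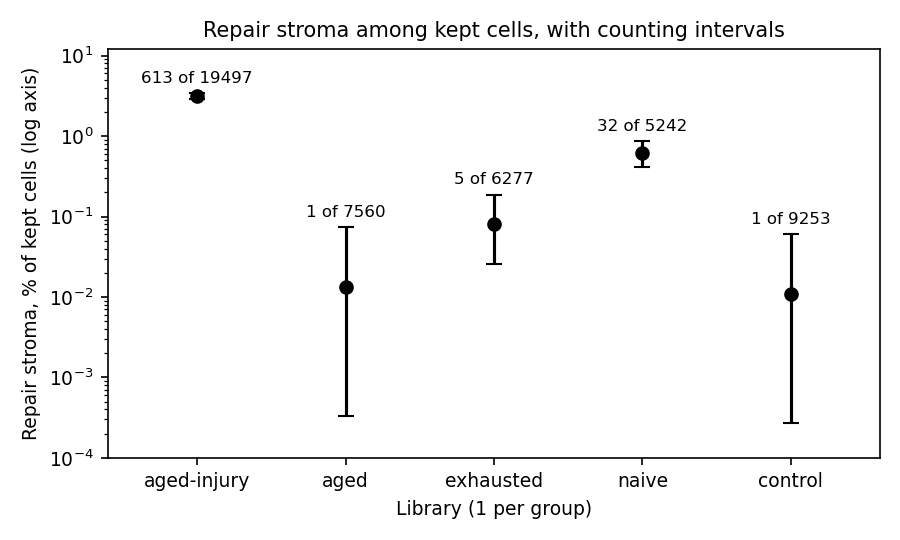
Share of kept cells that met the rule of the Hmga2 and Cd248 repair stroma in each of the 5 libraries, in percent on a log axis, with exact 95% intervals for counting error and the number of cells above each point. The aged-injury library stands at 3.14% and naive at 0.610%, and the uninjured aged and control libraries hold 1 cell each.

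All 5 genes were detected together in 190 cells (29.1% of the set). The next patterns were Cd248 with Adam23 and Acta2 in 132 cells (20.2%) and Hmga2 with Cd248, Adam23 and Acta2 in 104 cells (16.0%). In the aged-injury library 240 cells sat at the threshold with 3 genes, and 655 cells lay just outside it with 2. Just inside and just outside, Hmga2 stood at 36.3 and 33.3 UMIs per 1000000 UMIs of the summed cells (CPM), Masp1 at 14.6 and 8.20 CPM, Cd248 at 118 and 72.3 CPM, Adam23 at 89.8 and 40.1 CPM, and Acta2 at 647 and 211 CPM. Before the exclusion by Ptprc, Myh11 and Rgs5 there were 809 cells with 3 or more genes, and 151 of the 157 cells removed had Myh11 or Rgs5 UMIs.

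Hmga2, the chromatin protein of the rule, was at 159.9 CPM in aged-injury repair cells (interval 154 to 166) and at 10.5 CPM in the other stromal cells of that library. In naive it was at 93.8 CPM in repair cells and 3.69 CPM in other stroma. In the remaining libraries it was at 42.0 CPM (4 UMIs) in the 5 exhausted cells, against 4.92 CPM in other exhausted stroma. The single aged cell had 4 Hmga2 UMIs and the single control cell had 0, with other stroma at 1.57 CPM in aged and 5.12 CPM in control. It was detected in 67.7% of the aged-injury repair cells, and its level ran widely within them, from a lower quartile of 0 to an upper quartile of 152 CPM per cell.

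Cd248 was the most often detected of the 5, in 92.7% of aged-injury repair cells, at 162 CPM against 19.98 CPM in other stroma of that library, and at 168 against 13.1 CPM in naive. Adam23 was at 112 against 9.74 CPM in aged-injury and at 128 against 6.34 CPM in naive. Masp1 was at 66.7 against 2.42 CPM in aged-injury and at 31.3 against 0.938 CPM in naive, and was detected in 51.7% of aged-injury repair cells. In the 5 exhausted cells Masp1 was at 388 CPM (37 UMIs) and Adam23 at 31.5 CPM (3 UMIs), and 3 of the 5 had the pattern Masp1, Cd248 and Acta2.

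Acta2 was at 886 CPM in aged-injury repair cells against 101 CPM in other stroma, and at 729 against 103 CPM in naive repair cells and other naive stroma. Tagln, which the rule does not use, was at 485 CPM in aged-injury repair cells against 60.1 CPM in other stroma (8.07-fold, 7.85 to 8.30) and at 463 against 69.7 CPM in naive (6.65-fold, 5.94 to 7.42). It is a smooth-muscle gene that is commonly found with Acta2, and 76.7% of aged-injury repair cells had a UMI of it. The levels at 3, 4 and 5 detected genes were 428, 486 and 526 CPM for Tagln and 647, 839 and 1092 CPM for Acta2.

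**Figure D2:**
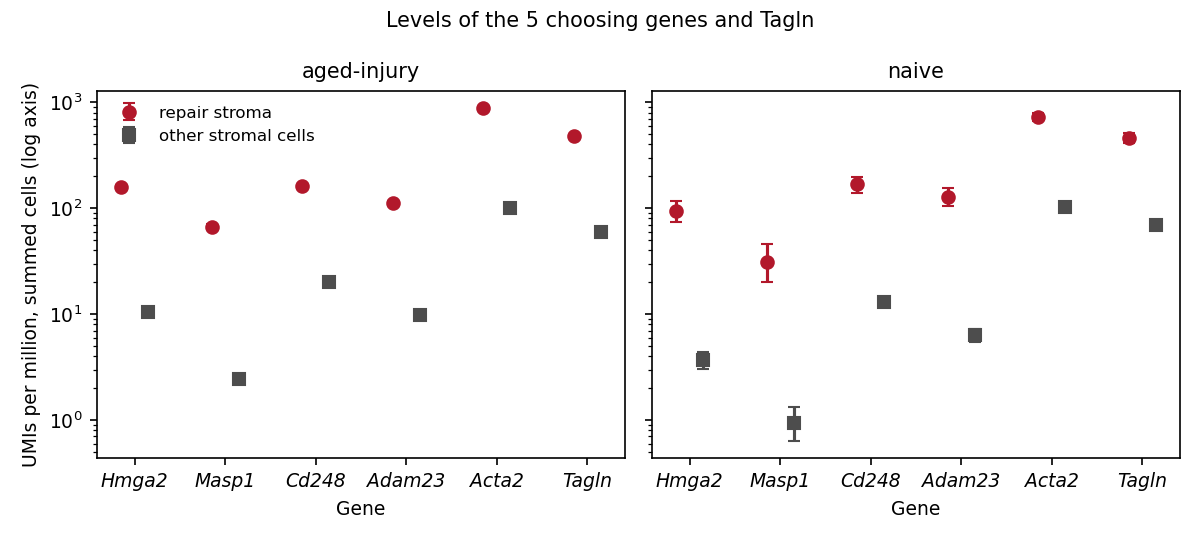
Levels of the 5 genes used to choose the cells and of Tagln, in CPM of the summed cells on a log axis, in the repair stroma (circles) and in the other stromal cells (squares) of the aged-injury library (left) and the naive library (right), with exact 95% Poisson intervals. All 6 genes are higher in the chosen cells in both libraries, by choice for the first 5, and Tagln stands at 485 against 60.1 CPM and at 463 against 69.7 CPM.

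Most of the cells, and not all, lay in 1 cluster, which was led in part by the choosing genes. Clustering of all kept cells gave 28 clusters, 17 of them stromal, and 1 cluster of 952 cells was led by Acta2, Fbln2, Hmga2, Tagln, Col15a1 and Lgals1 and is called here the repair cluster. Its class markers are Tagln and the choosing genes Hmga2, Masp1, Cd248 and Acta2. Its overlap with the set is therefore partly built in by the rule. It held 444 of the 613 aged-injury repair cells (72.4%) and 20 of the 32 naive ones (62.5%). Of the remaining aged-injury cells, 76 lay in an unnamed cluster led by Cxcl9 and Kit, 53 in a fibroblast-like cluster and 26 in an unnamed cluster led by Mid1. The exhausted, aged and control cells were not in the repair cluster: 4 exhausted cells were fibroblast-like and 1 reticular-like, the aged cell was reticular-like and the control cell fibroblast-like. Of the naive cells outside it, 8 were in the unnamed clusters, 2 in adipocyte-like and 2 in pericyte and smooth-muscle-like clusters. The share in the repair cluster was 49.6% for aged-injury cells with 3 genes, 78.9% with 4 and 95.2% with 5, and the median depth of these 3 sets was 21651.5, 29228 and 42260.5 UMIs. Both the choosing genes detected and the depth rose across the sets, so the rise in this share is a description only.

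**Figure D3:**
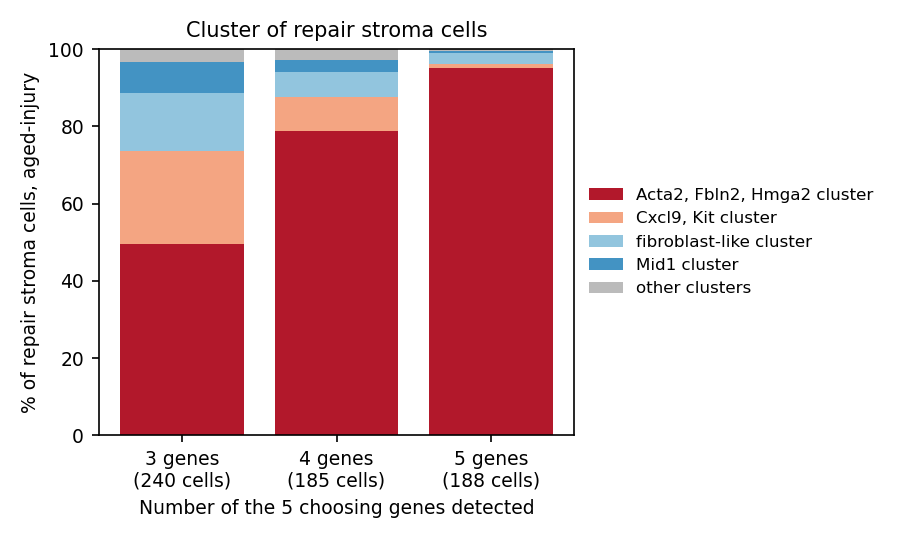
Cluster membership of the aged-injury repair stroma by the number of the 5 choosing genes detected, in percent of the cells of each bar (240, 185 and 188 cells). The dark red part, the cluster led by Acta2, Fbln2 and Hmga2, takes 49.6%, 78.9% and 95.2%, and the fibroblast-like part 15.0%, 6.49% and 2.66%.

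Markers of other cell types were measured beside these results, and their part in them was not tested. The 10 endothelial markers summed to 17.4 CPM in aged-injury repair cells against 26.5 CPM in other stroma, and to 21.3 against 25.7 CPM in naive, where Pecam1, Kdr and Tek were at 0 in the repair cells. The 7 Schwann cell markers summed to 19.6 against 70.1 CPM in aged-injury, with Foxd3 at 0, and to 16.3 against 68.9 CPM in naive, with 6 of the 7 at 0. The 12 blood markers summed to 132 against 96.0 CPM in aged-injury and to 322 against 416 CPM in naive. Ptprc is 0 by rule, and in the aged-injury members of the repair cluster the sum was 25.3 CPM. Leaving out 6 aged-injury repair cells of chondrocyte-like, pericyte-like and non-stromal clusters, Hbb-bs and Hba-a1 were at least 2-fold lower than in other stroma. The median log2 ratio of the 2 measured blood genes was then -2.20 in place of 0.52. The 12 pericyte and smooth muscle markers summed to 384 CPM in aged-injury repair cells, against 29147 CPM in the pericyte and smooth-muscle-like cells of that library, with Rgs5 and Myh11 at 0 by rule. The 12 fibroblast markers summed to 277 CPM, against 2093 CPM in its fibroblast-like cells. Beside other stroma, the 3 fibroblast markers that reached 20 CPM, Mfap5, Ly6a and S100a4, were at least 2-fold higher in aged-injury repair cells (median log2 ratio 1.35). With a minimum of 5 CPM, 4 of 9 were higher and 1 lower. The reporter, tdTomato, was at 64.4 CPM in aged-injury repair cells and 71.3 CPM in other stroma, and at 43.8 against 67.9 CPM in naive. The median mitochondrial share of UMIs was 7.07% in aged-injury repair cells against 5.65% in other stroma, and 10.2% against 8.37% in naive.

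Of the 7310 genes at 20 CPM or more in repair cells or other stroma of the aged-injury library, 656 were at least 2-fold higher in repair cells (8.97%) and 824 at least 2-fold lower (11.3%), with a median log2 ratio of 0.03. In naive, 922 of 7644 genes were higher (12.1%) and 1028 lower (13.4%). In both libraries together 423 genes were higher and 605 lower in repair cells. The other stroma of aged-injury includes 415 cells of the repair cluster that missed the rule. Against the 1865 stromal cells of that library with at least 19645 UMIs, the lower quartile of the repair cells, 390 of 7062 genes were higher (5.52%) and 452 lower (6.4%). These deep cells were another mix of classes, with 39.0% in osteoblast-lineage-like clusters, 16.3% in reticular-like ones and 227 cells (12.2%) in the repair cluster itself.

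The 15 genes named as higher in both libraries were Fbln2, S100a4, Col15a1, Dlk1, Ddah1, S100a6, Arxes2, Tagln, Lgals1, Col18a1, Fabp5, Tpm2, Abcg1, Psat1 and Glipr1. Fbln2, the matrix glycoprotein fibulin-2, was at 436 CPM in aged-injury repair cells against 25.3 CPM in other stroma (17.3-fold, 16.7 to 17.9). In naive it was at 339 against 7.09 CPM (47.8-fold, 39.9 to 57.3), with 65.3% of its naive UMIs in 3 cells. It was detected in 85.0% of aged-injury repair cells, with a middle range of 87.6 to 553 CPM per cell around a median of 283 CPM. Col15a1 and Col18a1, collagens that join basement membranes to the tissue around them, were at 673 against 77.9 CPM and at 587 against 95.3 CPM in aged-injury, and at 887 against 46.7 CPM and at 629 against 81.4 CPM in naive. Each was therefore more than 6-fold higher in the repair cells of both libraries.

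Lgals1, the galactose-binding lectin galectin-1, was at 3089 CPM in aged-injury repair cells against 466 CPM in other stroma (6.63-fold, 6.57 to 6.70), and at 2290 against 268 CPM in naive (8.53-fold, 8.11 to 8.97). The calcium-binding proteins S100a6 and S100a4 were at 3298 against 460 CPM and at 55.6 against 5.50 CPM in aged-injury, and at 2407 against 254 CPM and at 105 against 6.06 CPM in naive. Lgals1 was found in 99.2% of aged-injury repair cells, S100a6 in 99.0% and S100a4 in 42.6%. S100a4 was near its repair cell level in the pericyte and smooth-muscle-like cells (61.4 CPM) and fibroblast-like cells (43.8 CPM) of aged-injury. Ddah1, which breaks down methylated arginines, was at 146 against 19.6 CPM in aged-injury and at 120 against 14.1 CPM in naive. Abcg1, a sterol exporter, was at 43.6 against 7.47 CPM and at 86.3 against 13.3 CPM in these libraries. Arxes2 (6.86-fold and 6.82-fold) and Glipr1 (5.80-fold and 5.70-fold) had close ratios in aged-injury and naive.

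As for Fbln2, the naive values of Dlk1, Fabp5 and Psat1 rested largely on few cells. Dlk1, an imprinted membrane protein of the Notch ligand family that restrains fat cell formation, was at 22.1 against 2.71 CPM in aged-injury and at 72.6 against 1.25 CPM in naive, where 91.4% of its UMIs were in 3 cells. Fabp5, a fatty-acid carrier, was at 305 against 50.5 CPM in aged-injury and at 868 against 118 CPM in naive. Without the 4 naive cells of adipocyte-like and pericyte-like clusters its naive ratio was 1.51-fold in place of 7.34-fold. Psat1, an enzyme of serine synthesis, was 5.75-fold higher in aged-injury and 8.38-fold higher in naive, or 3.11-fold without those cells, and 74.4% of its naive UMIs were in 3 cells.

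Among the contractile genes, 11 of the 17 measured were at least 2-fold higher in aged-injury repair cells and 0 at least 2-fold lower, with a median log2 ratio of 1.20. Beside Tagln, these included Tpm2, a tropomyosin (324 against 44.4 CPM, 7.28-fold), Zyx, a focal adhesion protein (299 against 69.9 CPM, 4.28-fold), Myl9, a myosin regulatory light chain (246 against 81.5 CPM, 3.02-fold), and Actg1, cytoplasmic gamma actin (4858 against 1899 CPM, 2.56-fold). Tpm1 was at 1187 against 1614 CPM, and Cnn1, calponin of mature smooth muscle, was at 1.03 against 0.514 CPM. Against deep stromal cells 7 of 17 were higher, with a median of 0.91. In naive, without the 4 cells of other classes, 8 of 17 were higher and 1 lower, with a median of 0.99. Over all genes 791 of 7501 were higher (10.5%) and 1057 lower (14.1%) without these 4 cells, with a median of 0.02.

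Serum response factor is a transcription factor that controls many contractile genes through a short element, the CArG box. Only its strict form was searched, CC and GG with nothing but A or T between them. In RefSeq promoter windows of build GRCm38.p6, from 250 bases before to 50 after each start, this box was found on either strand in 535 of 32851 windows (1.63%), or 488 of 27025 genes (1.81%). Of the 20 contractile genes 18 were in the table and 5 had the box (27.8%). Of the 11 that were at least 2-fold higher in aged-injury repair cells 9 were in the table, and 4 had it. A match is a description of the letters and not a bound site. The stretches around the 4 boxes are shown because these genes were higher in the repair cells, in lower case with the box in capitals, 5′ to 3′ on the strand of the gene.
Actg1, chr11:120348551-120348610, minus strand, box starting 90 bases before the start: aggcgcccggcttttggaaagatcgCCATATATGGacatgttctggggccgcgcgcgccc
Cnn2, chr10:79988519-79988578, plus strand, box starting 56 bases before the start: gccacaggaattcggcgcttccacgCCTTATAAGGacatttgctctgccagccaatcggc
Myl6, chr10:128493025-128493084, minus strand, box starting 50 bases before the start: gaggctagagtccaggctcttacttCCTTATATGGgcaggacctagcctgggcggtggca
Myl9, chr2:156775278-156775337, plus strand, box starting 161 bases before the start: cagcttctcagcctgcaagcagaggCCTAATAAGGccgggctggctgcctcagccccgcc

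All 4 boxes lie within 161 bases of the start. None of the 10 named higher genes in the table, and none of the 3 choosing genes in it, held the strict form of the box in this window. Boxes that depart from the strict form were not searched for, so these genes may still hold such a box. Cnn2, an actin-binding calponin of many cell types, was at 645 CPM in aged-injury repair cells against 321 CPM in other stroma, and Myl6, a myosin essential light chain, at 1040 against 439 CPM. Both were closer together in naive, with Cnn2 at 524 against 448 CPM (1.17-fold) and Myl6 at 832 against 426 CPM (1.95-fold).

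Of the cell division genes, 14 were measured. Of these, 13 were at least 2-fold higher in aged-injury repair cells and 0 lower, with a median log2 ratio of 3.26, and 13 were higher against deep stromal cells, with a median of 1.97. Mki67, the proliferation antigen Ki-67, was at 140 against 16.1 CPM (8.68-fold, 8.24 to 9.15), Top2a, the DNA topoisomerase of dividing cells, at 227 against 24.3 CPM (9.33-fold, 8.95 to 9.72), and Birc5, survivin, at 107 against 7.89 CPM (13.5-fold, 12.7 to 14.5). Mcm5, of the helicase of DNA replication, was at 67.3 against 6.20 CPM. Pcna, the replication clamp, was at 207 against 113 CPM.

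At a fixed depth of 3000 UMIs, 57.4% of the aged-injury repair cells had a UMI of any of the 16 division genes, against 33.3% of other stromal cells, 40.6% of pericyte and smooth-muscle-like cells, 34.0% of fibroblast-like cells and 34.5% of reticular-like cells. Mki67 alone was found in 18.1% of thinned repair cells and 1.79% of thinned other stromal cells. The share was 66.0% in the repair cells of the repair cluster, 27.6% in those of the Cxcl9 and Kit cluster, 34.0% in the fibroblast-like and 46.2% in the Mid1 cluster. In naive it was 43.8% of 32 repair cells against 25.6% of other stroma, and of 9 measured genes 8 were higher and 0 lower without the cells of other classes (median 2.28). In thinned naive cells 4 of 9 were higher, and against all other naive cells with no Ptprc, Myh11 or Rgs5, those outside the stromal clusters included, 0 of 12 were higher and 5 lower (median -0.79). Mki67 was at 42.5 CPM in naive repair cells against 11.97 CPM in naive other stroma, from 34 UMIs of which 85.3% were in 3 cells.

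Of the list around HMGA2, let-7 and fetal growth, 5 of 14 measured genes were at least 2-fold higher and 3 lower in aged-injury repair cells, with a median log2 ratio of 0.86. Hmga1, the close relative of Hmga2, was at 181 against 15.8 CPM in aged-injury (11.5-fold, 11.0 to 12.1) and at 51.3 against 4.59 CPM in naive (11.2-fold, 7.70 to 15.9). Mest, an imprinted gene of embryonic mesoderm, was at 125 against 27.5 CPM, and H19, an imprinted noncoding RNA, at 363 against 138 CPM. Both were higher still in fibroblast-like cells, at 379 CPM for Mest and 2177 CPM for H19. Cdkn2a, the locus of the p16 and p19 cell-cycle inhibitors, was at 51.8 against 7.60 CPM in aged-injury (6.81-fold, 6.28 to 7.39) and at 51.3 against 6.09 CPM in naive. Igf2bp2, an mRNA-binding protein, was at 77.7 against 41.5 CPM, while Igf2 and Lin28b were below 1 CPM in both sets of that library. The genes lower in repair cells were Igf1 (177 against 512 CPM), the cell-cycle inhibitor Cdkn1c (20.4 against 80.8 CPM) and Plagl1 (127 against 313 CPM). In naive, without the 4 cells of other classes, 7 of 13 genes were higher and 4 lower (median 1.42).

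Of 26 fibrillar collagen and matrix genes, 5 were at least 2-fold higher and 5 lower in aged-injury repair cells, with a median log2 ratio of 0.24, which turned to -0.07 against deep stromal cells (3 higher and 8 lower). With the mean over cells 9 were higher and 3 lower (median 0.79), and in thinned cells 9 and 4 (median 0.63). The higher ones were Fn1, fibronectin (1919 against 545 CPM, 3.52-fold), Col6a3 (1120 against 346 CPM, 3.23-fold), Col6a2, Col3a1 and Thbs2. The lower ones were the small proteoglycans Dcn (157 against 784 CPM) and Lum, with Col11a1, Tnc and Fap. Col1a1, the main bone and scar collagen, was at 22524 against 19774 CPM in aged-injury and at 17426 against 9210 CPM in naive. Of 25 genes of collagen crosslinking and matrix turnover 3 were higher and 2 lower, with Timp1, an inhibitor of matrix proteases, at 403 against 129 CPM and the collagenase Mmp13 at 1051 against 3803 CPM. Of 20 genes of the TGF-beta pathway 2 were higher, among them Inhba, an activin subunit (86.4 against 35.4 CPM), and 4 lower, among them Ccn2 at 223 against 804 CPM.

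Genes that define the marrow's reticular stroma were lower in the repair cells than in other stroma. Of 12 measured, 0 were at least 2-fold higher and 10 lower in aged-injury, with a median log2 ratio of -1.76. Cxcl12, a chemokine that keeps blood stem cells in the marrow, was at 6166 against 22583 CPM, the leptin receptor gene Lepr at 226 against 1852 CPM (0.122-fold, 0.118 to 0.126), and Adipoq, adiponectin, at 494 against 2858 CPM. In naive Lepr was at 210 against 1837 CPM, and without the 4 cells of other classes 9 of the 12 genes were lower. Against deep stromal cells 6 were lower, with a median of -1.02. Reticular-like cells made up 7472 of the 17758 other stromal cells of aged-injury. Beside the fibroblast-like cells of that library, 5 of 12 reticular genes were higher and 1 lower in repair cells (median 0.73). Beside its pericyte and smooth-muscle-like cells, 3 were higher and 1 lower (median 0.27).

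All 13 measured osteoblast-lineage genes were at least 2-fold lower in aged-injury repair cells (median log2 ratio -2.67), and all 14 against deep stromal cells. Runx2, the lead transcription factor of bone formation, was at 189 against 667 CPM, Ibsp, bone sialoprotein, at 438 against 3159 CPM, and Bglap, osteocalcin, at 8.01 against 609 CPM. Among 14 chondrocyte genes 13 were lower and Sox9, a transcription factor of cartilage progenitors, was at 152 against 75.6 CPM. In naive Sox9 was at 133 against 62.7 CPM.

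Masp1 is a choosing gene, and the other measured genes of the complement list were not high with it. Of 8, 0 were at least 2-fold higher and 6 lower in aged-injury, with C4b, a complement component cleaved by the lectin pathway, at 186 against 1162 CPM, Serping1, the inhibitor of its proteases, at 747 against 2821 CPM, and C1ra at 155 against 446 CPM. Masp2, the related protease, was at 0.103 against 0.230 CPM. Against deep stromal cells 3 of 9 were lower. The LGI genes, whose products bind ADAM23, were at 0.775 to 3.93 CPM in the repair cells.

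The named lower genes include secreted regulators of Wnt and insulin-like growth factor signals. Igfbp5, a binding protein of these growth factors, was at 903 CPM in aged-injury repair cells against 13370 CPM in other stroma (0.0676-fold, 0.0665 to 0.0686), and at 203 against 11602 CPM in naive. Wif1, a secreted Wnt inhibitor, was at 10.4 against 177 CPM in aged-injury, and Wnt4, a Wnt ligand, at 2.84 against 52.4 CPM. In naive repair cells Wnt4 had 0 UMIs against 78.9 CPM in other stroma, a ratio of at most 0.0476 when 3 counts over the group stand for 0. Col6a5, a collagen VI chain, was at 11.5 against 246 CPM in aged-injury, and Cbln1, a secreted synaptic organiser in the brain, at 22.3 against 331 CPM. Cyfip2, of an actin-regulating complex, was at 2.63 against 64.2 CPM. Cadm1, Lcp2, Fam174b and Msc were also named, at 0.0517-fold to 0.0678-fold. These contrasts are with pooled stroma, whose classes differed. In pericyte and smooth-muscle-like, fibroblast-like and reticular-like cells of aged-injury, Wif1 was at 25.4, 31.7 and 14.5 CPM. In the same order Wnt4 was at 5.99, 5.69 and 58.5 CPM and Cbln1 at 36.2, 22.4 and 583 CPM. Col6a5 was at 23.0, 61.4 and 425 CPM and Igfbp5 at 2738, 8591 and 24004 CPM.

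Of 14 Wnt and BMP genes 2 were higher, Wnt5a (100.4 against 49.5 CPM) and Sfrp2, and 8 lower, with Bmp6, a bone morphogenetic protein, at 38.9 against 546 CPM and Grem1, a BMP antagonist, at 106 against 916 CPM. Of 15 transcription factors of limb and mesenchyme, 3 were higher, Osr1 (44.4 against 11.2 CPM), Prrx2 (29.4 against 9.63 CPM) and Tbx18 (58.0 against 24.6 CPM), and 5 lower. Of 12 progenitor surface genes 3 were higher: Cd44, the hyaluronan receptor (186 against 70.0 CPM), Thy1 (60.3 against 20.003 CPM) and Nes, nestin (25.6 against 6.43 CPM). The 2 lower ones were Pdgfra, a growth factor receptor of mesenchymal cells (180 against 386 CPM), and Cd200, a surface glycoprotein (111 against 271 CPM). Against deep stromal cells 2 were higher and 2 lower. In naive 3 of 11 were higher and 4 lower with all repair cells kept, and 3 higher and 3 lower without the 4 cells of other classes. Of 13 vessel growth factors Vegfd was higher, at 26.1 against 5.44 CPM, and 5 were lower, among them Vegfa at 309 against 748 CPM. None of 15 immediate early and stress genes was higher and 9 were lower, with Fos at 1768 against 4969 CPM, and 2 were lower against deep stromal cells.

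**Figure D4:**
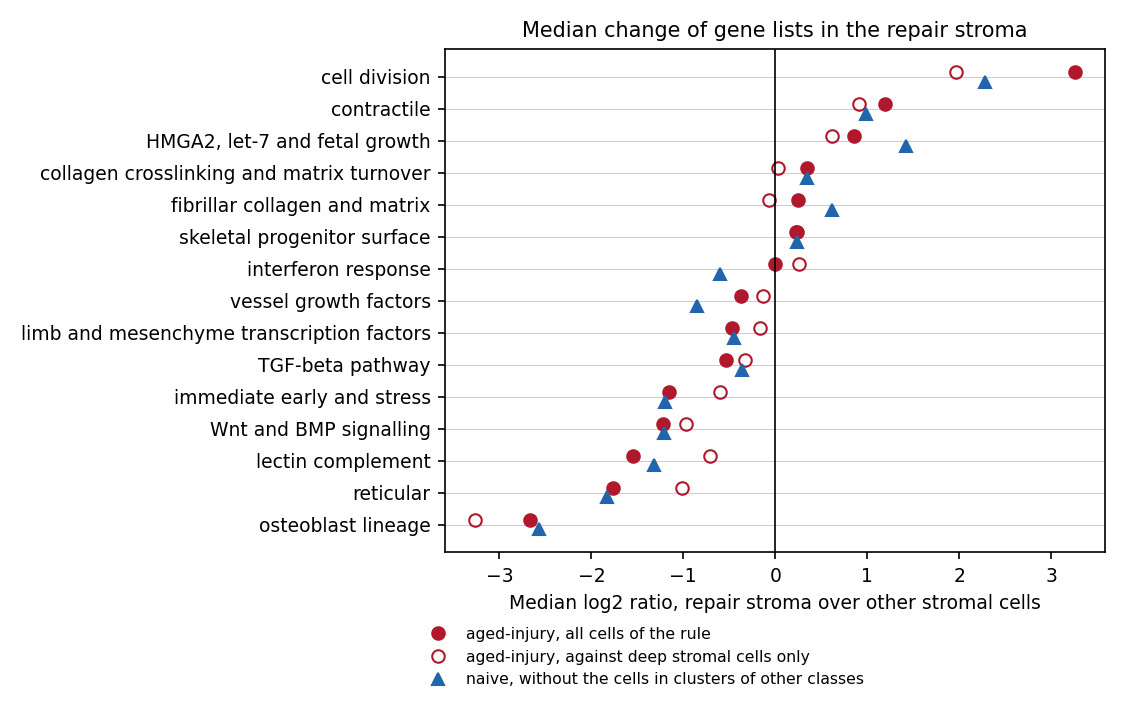
Median log2 ratio of the measured genes of 15 lists, repair stroma over other stromal cells, for the aged-injury library (filled circles), the same library against deep stromal cells only (open circles) and the naive library without the 4 cells of other classes (triangles). Cell division (3.26, 1.97 and 2.28) lies farthest to the right and the osteoblast lineage (-2.67, -3.26 and -2.57) farthest to the left of the lists shown. The chondrocyte list, with medians of -2.24, -3.87 and -2.88, is not plotted.

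The repair cells were set beside 3 named classes of aged-injury stroma. The unnamed clusters led by Cxcl9 and Kit and by Mid1, with 76 and 26 aged-injury repair cells, were not among them. Over all cells of these clusters, repair cells and all libraries included, Hmga2 was at 14.5 and 16.3 CPM. In the 3 classes Hmga2 was at 4.19 CPM in the pericyte and smooth-muscle-like cells, 6.03 CPM in fibroblast-like cells and 7.33 CPM in reticular-like cells. Cd248, at 162 CPM in repair cells, was near that level in pericyte and smooth-muscle-like cells (125 CPM) and in fibroblast-like cells (123 CPM). Acta2 was higher in the pericyte and smooth-muscle-like cells, at 2643 CPM, and low in fibroblast-like (46.2 CPM) and reticular-like cells (5.20 CPM). Masp1 was at 19.8 CPM in fibroblast-like cells and below 1 CPM in the other pair of classes.

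Against pericyte and smooth-muscle-like cells, 708 of 7641 genes were at least 2-fold higher in repair cells (9.27%) and 1108 lower (14.5%). The contractile list had 2 of 19 genes higher and 5 lower there (median log2 ratio -0.51), and the matrix list 12 of 26 higher and 3 lower (0.89). Against fibroblast-like cells, where 773 of 7208 genes were higher (10.7%) and 672 lower (9.32%), the order turned: 11 of 17 contractile genes were higher and 0 lower (1.28), and 1 of 26 matrix genes was higher and 13 lower (-0.98). Against reticular-like cells, with 1017 of 7237 genes higher (14.1%) and 832 lower (11.5%), both lists had more genes higher than lower, 13 of 17 and 0 for contractile genes and 16 of 26 and 2 for matrix genes. The cell division list had 13 of 14 genes higher against each of the 3 classes, with medians of 1.51, 3.14 and 5.54.

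**Figure D5:**
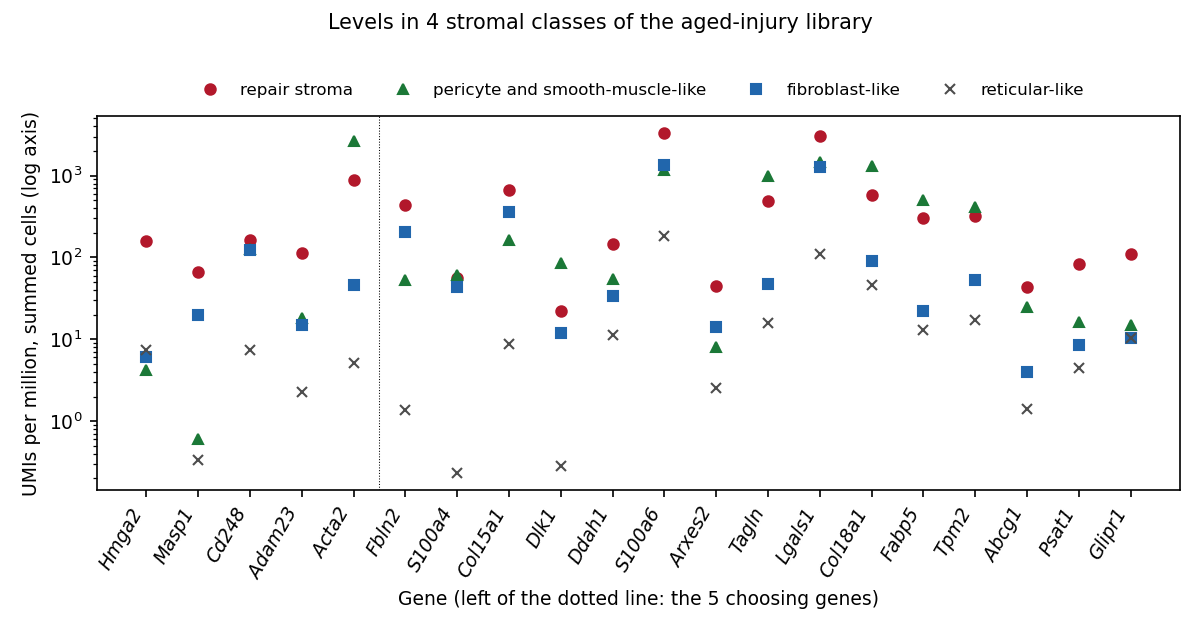
Levels of the 5 choosing genes and of the 15 named higher genes in 4 sets of cells of the aged-injury library, in CPM of the summed cells on a log axis. Acta2, Dlk1, Tagln, Col18a1, Fabp5 and Tpm2 are higher in pericyte and smooth-muscle-like cells (triangles) than in the repair stroma (circles), and Hmga2, Masp1, Adam23, Fbln2 and Col15a1 are higher in the repair stroma than in each of the other classes. S100a4 is at close levels in pericyte and smooth-muscle-like cells (61.4 CPM) and the repair stroma (55.6 CPM).

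Within the aged-injury set, 259 of 7143 genes were at least 2-fold higher (3.63%) and 493 lower (6.9%) in the repair cells of the repair cluster than in those outside it. Cell division again differed, with 14 of 15 genes higher (median 2.58). Among contractile genes 5 of 17 were higher, namely Tagln, Tpm2, Tpm4, Actg2 and Zyx. Matrix genes ran the other way, with 0 of 26 higher and 9 lower (median -0.72). The 415 cells of the repair cluster that missed the rule were set against the remaining stroma in the same way, where 443 of 7235 genes were higher (6.12%) and 618 lower (8.54%): 14 of 15 division genes (median 4.89) and 10 of 18 contractile genes (median 1.08) were higher. The clusters were drawn with these genes, so these values describe them only.

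Between the injured libraries, 379 of 7356 genes were at least 2-fold higher (5.15%) and 518 lower (7.04%) in aged-injury repair cells than in the 32 naive repair cells, and scaling by TMM gave 531 higher and 367 lower. Age, time after surgery and library cannot be told apart here. The sets also differed in make-up: 53 of the 613 aged-injury repair cells and 0 of the 32 naive ones lay in the fibroblast-like cluster. Division genes were higher in aged-injury, 12 of 14 with a median log2 ratio of 1.78, as were 8 of 15 immediate early genes (1.14) and 5 of 11 interferon genes (0.97). The contractile list had 1 of 18 genes higher and 1 lower (0.13). Ccl2, a chemokine that draws monocytes, was at 292 CPM in aged-injury repair cells against 12.5 CPM in naive ones (23.3-fold, 12.7 to 48.7). Aldh1a2, an enzyme of retinoic acid synthesis, was at 70.1 against 2.50 CPM (28.0-fold, 7.75 to 232, from 2 naive UMIs). Mfap5, a microfibril protein of fibroblasts, was at 51.4 against 1.25 CPM (41.1-fold, 7.36 to 1626, from 1 naive UMI). In the fibroblast-like cells of aged-injury outside the set Mfap5 was at 410 CPM and Fndc1 at 606 CPM. The part of the fibroblast-like repair cells in these 2 ratios was not tested. The other higher genes named by the rule were Plk2, Ptgs2, Fndc1, Nusap1, Aspm, Ccnb1 and Col10a1, and 94.7% of the Col10a1 UMIs of aged-injury were in 3 cells. Naive repair cells held 1 UMI each of Plk2, Ptgs2, Nusap1 and Aspm, 2 each of Fndc1 and Ccnb1, and 4 of Col10a1.

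The 9 adipocyte markers summed to 1665 CPM in aged-injury repair cells against 761 CPM in other stroma, and to 7193 against 2585 CPM in naive. The genes named as lower in aged-injury than in naive repair cells were Cidec, Kcnk3, Gpd1, Acsl1, Plin1, Lcn2, Zbtb16, Cd36, Mgll and Cdo1, several of which are lipid droplet or lipid-burning genes of fat cells. In naive, 3 cells held 53.9% of the Zbtb16 UMIs and 87.4% to 99.4% of those of the other 9 genes. Plin1, the perilipin that coats fat droplets, was at 20.8 CPM in aged-injury against 337 CPM in naive (0.0619-fold). Without 6 aged-injury and 4 naive cells of adipocyte-, chondrocyte- and pericyte-like or non-stromal clusters its ratio was 0.233, that of Acsl1 0.643, that of Gpd1 0.808, and Mgll (2.90) and Cdo1 (1.83) turned round. The ratio was still low for Kcnk3 (0.0239) and Zbtb16 (0.0724), and was 0.2503 for Cidec, 0.317 for Cd36 and 0.691 for Lcn2. All 8 measured adipocyte genes were lower with every cell kept (median -4.70), and 3 of 4 without those cells (-1.49), where 348 of 7183 genes of all kinds were higher (4.84%) and 415 lower (5.78%). The cell division values moved little, with 12 of 14 genes higher and a median of 1.63.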

How the data were processed

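The deposited values were UMI counts per gene and cell, 1 matrix per library, whole numbers with no normalisation, per the labels made from tdTomato-positive cells on a BD Rhapsody HT Xpress system. The submitters' processing notes name Seurat 5.1 and build GRCm39. Which aligner, counting tool and cell caller were used is not given in the sources used here. Libraries listed 26484 to 27845 genes and were joined by symbol (30099 symbols), an unlisted symbol counting as 0. They held 57968 cells, and 70.1 to 93.4% per library were kept at 500 genes, 1000 UMIs and a mitochondrial share under 25%.

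Clusters were made with scanpy 1.11.5 (2000 variable genes, 30 components, 15 neighbours, Leiden resolution 1.0, seed 0, no integration). A cluster was named when at least 50% and at least 3 of a class's markers were each found in 10% of its cells and were 1.5-fold higher there. UMIs were summed over cells and scaled to CPM. Genes at 20 CPM or more in either set were counted when they differed at least 2-fold with an interval that left out 1, and a set at 0 was put at a floor of 3 counts. The ratio intervals were tested on simulated Poisson counts only, which lack the gathering of UMIs in few cells seen in these data. TMM factors came from edgeR 4.0.16, and intervals from scipy 1.17.1.

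Genes were named as the 15 with the largest smaller ratio over aged-injury and naive, the 10 so lower, and the 10 at each end of aged-injury over naive. They needed 50 UMIs and 10% of cells in the higher set, and the choosing genes, mitochondrial, ribosomal, predicted and transgene features and blood and endothelial markers were left out. Naive, with 32 cells, is under the 50 set for a comparison of its own and is given beside aged-injury. The members and gene lists were chosen with earlier results of these data known. Alternatives were thinning, stricter rules, other filters, TMM scaling, means over cells and other reference cells. Each group being 1 library, groups were not tested against each other. Promoter windows came from a RefSeq table of another build, GRCm38.p6, and were not joined to file coordinates.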

Additional observations from a re-analysis of the deposited data

Results flagged for a closer look

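At the 2-fold threshold 1 gene was higher in aged-injury and lower in naive repair cells than in other stroma, and 5 were the other way round. The 3 that also passed the filters for named genes in both libraries follow, and none of these differences was tested. Cdo1, an enzyme of cysteine breakdown, had a log2 ratio of repair cells over other stroma of -1.79 in aged-injury (16.7 against 57.8 CPM) and 1.45 in naive (196 against 71.7 CPM). Pfkfb3, a regulator of glycolysis, had -1.16 in aged-injury (13.7 against 30.5 CPM) and 1.42 in naive (82.6 against 30.8 CPM). Sfrp2, a secreted Wnt regulator, had 1.42 in aged-injury (315 against 118 CPM) and -1.30 in naive (41.3 against 101 CPM). In naive, 3 of the 32 repair cells held 97.5% of the Cdo1 UMIs, 97.0% of those of Pfkfb3 and 78.8% of those of Sfrp2. Without the 4 naive cells in adipocyte-like and pericyte-like clusters the naive ratios were 0.129-fold for Cdo1, 0.199-fold for Pfkfb3 and 0.5003-fold for Sfrp2, and of the 3 genes Sfrp2 then still lay on opposite sides.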

How the results depend on the processing

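The share of repair cells, in percent of kept cells in aged-injury, aged, exhausted, naive and control, was 0.796, 0, 0, 0.0886 and 0 at 3000 UMIs per cell, 1.91, 0, 0, 0.229 and 0 with at least 4 of the 5 genes, and 0.785, 0, 0, 0.0191 and 0 without cells holding an endothelial, Schwann or blood marker UMI. Without Acta2 in the rule it was 2.16 in aged-injury, 0.324 in naive and 0 in control. Aged-injury was highest and naive next under each of these. By membership of the repair cluster, a choice made after seeing the data, it was 4.41 in aged-injury, 0.239 in exhausted and 1.35 in naive. A minimum of 5 CPM gave 1035 genes higher and 1327 lower in aged-injury repair cells than in other stroma, and 623 higher and 902 lower in aged-injury than in naive repair cells, with more genes entering. Deep stromal cells as the comparison, chosen after seeing the data, gave 390 higher and 452 lower. Thinning left 211 genes higher in aged-injury than in naive repair cells, of which 80 were among the 379; the cause was not tested. With the mean over cells the median log2 ratio was 0.79 for the matrix list and 3.53 for cell division against other stroma, and -0.20 for the contractile list between aged-injury and naive repair cells. Between those libraries the log2 ratio of Aspm was -0.49 after thinning, with at least 4 genes those of Acsl1, Cd36, Mgll and Cdo1 were 0.33, 0.81, 0.12 and 0.86, and without cells of other classes, also chosen after seeing the data, those of Mgll and Cdo1 were 1.54 and 0.87. Scaling by TMM moved all log2 ratios by -0.00 in aged-injury, -0.14 in naive and 0.16 between their repair cells, where it gave 531 higher and 367 lower genes in place of 379 and 518. Within the limits set were 19 of 40 shares, 21 of 28 gene counts, 75 of 78 list medians and 169 single-gene log2 ratios, while 144 single-gene ratios moved in the same direction and 7 reversed. Thinning moved 39 of 45 single-gene ratios and deep stromal cells 23 of 25. Replicates could not be left out, since each group is 1 library. No paired analysis was possible because each group has 1 library and no result comes from a test. The 32 naive, 5 exhausted and single aged and control cells limit every value given for them.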

Other observations

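A green reporter sequence, EGFP, was listed in 4 of the 5 libraries, aged being the other one, although the labelled genotype does not name it. It was at 2.07 CPM in aged-injury repair cells against 188 CPM in other stroma, and had 0 UMIs in the naive repair cells against 51.9 CPM in other naive stroma. Its origin was not tested.

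Fabp4, a fatty-acid carrier of fat and vessel cells, was at 1049 CPM in aged-injury repair cells against 324 CPM in other stroma, with a middle range of 151 to 1295 CPM per cell, so that the level was spread over many of the 613 cells. Fabp4 was at least 2-fold lower than in pericyte and smooth-muscle-like cells of that library, and at least 2-fold higher than in its fibroblast-like and reticular-like cells. The lipid droplet gene Plin1 was at 20.8 CPM in repair cells against 12.2 CPM in other stroma. Ndufa4l2, which is used as a pericyte marker, was the 1 gene of that list that was at least 2-fold higher, at 101 against 23.5 CPM (4.31-fold, 4.09 to 4.55), while Vtn was at 1.70 against 27.0 CPM. Isg15, an interferon-induced protein, was at 104 against 32.1 CPM (in naive, 27.5 against 29.9 CPM), and Cxcl10, a chemokine of the same response, at 70.4 against 212 CPM.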
